A study of Mus musculus with 21 samples.

Results

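The genes described here are the ligands, receptors, secreted agonists, secreted inhibitors and direct target genes of the Wnt pathway, measured in mouse motor neuron cultures. They were chosen by name, 46 genes of the 55400 in the deposited count table, and all 46 were found there. By role they fall into 19 ligands, 12 receptors and co-receptors (Fzd1 to Fzd10, Lrp5 and Lrp6), 3 agonists (Rspo1 to Rspo3), 7 inhibitors (Dkk1 to Dkk3, Sfrp1, Sfrp2, Sfrp5 and Notum) and 5 targets or transcription factors (Axin2, Lef1, Tcf7, Sp5 and Nkd1).

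The cultures started from wild-type C57BL/6 embryonic stem cells kept on mitomycin-treated fibroblast feeders. Embryoid bodies were directed toward spinal motor neurons with retinoic acid and the Smoothened agonist SAG, and the Notch pathway inhibitor DAPT was added from day 4. PolyA RNA was sequenced at D4 (motor neuron progenitors, pMN), at D4H8, which is 8 hours later (pnMN), at D5 (newborn motor neurons, nbMN) and at D6 (more mature motor neurons, mMN). Parallel cultures received GSKJ4, an inhibitor of the H3K27 demethylases that include Kdm6b, for the day before collection at D4H8, D5 or D6. The 7 groups, D4, D4H8, D4H8 with GSKJ4, D5, D5 with GSKJ4, D6 and D6 with GSKJ4, held 3 biological replicates each, 21 libraries in all. Every group shares the genotype, and retinoic acid and SAG were given up to collection or to D5. The medium used from D5 held DAPT but no retinoic acid or SAG, so the D6 groups spent their last day without these. Because every untreated stage after D4 also had DAPT, the effect of stage and that of DAPT cannot be told apart. Nor can the step from D5 to D6 be told apart from the withdrawal of retinoic acid and SAG. The GSKJ4 dose used for these libraries and the vehicle of the untreated cultures were not given in the sources used here.

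Wnt ligands are secreted lipid-modified proteins that bind Frizzled receptors together with the co-receptors Lrp5 and Lrp6. Binding stabilises beta-catenin, which enters the nucleus and works with TCF and LEF factors at genes such as Axin2 and Sp5. R-spondins strengthen the signal by keeping Frizzled receptors at the surface, whereas Sfrp proteins bind ligands, Dkk1 blocks the Lrp co-receptors and Notum removes the lipid from the ligand. In the embryonic spinal cord Wnt1 and Wnt3a are made dorsally, at the roof plate, and Sfrp genes are expressed by progenitors.

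The libraries held 14982115 to 34383842 counted reads, with a median of 16238435. The deepest was untreated D4H8 replicate 1. The library of GSKJ4-treated D5 replicate 2 stood apart, with 39381 genes at 0 against 29339 to 32805 in the other 20. In that library 16 of the 46 members were at 0, against 1 to 7 in each other library, and the members at 0 included Wnt7b, which had 54 and 101 reads in the other libraries of its group. The member values of the GSKJ4 comparison at D5 are therefore given with and without it. Motor neuron identity was present in the cultures, as Isl1 averaged 125 ± 9.61 FPKM (fragments scaled to exon length and to library size; SD, n = 3) at untreated D6. With GSKJ4 at D4H8, Olig2, which defines the motor neuron progenitor domain, was at 6.93 ± 4.59 FPKM against 98.2 ± 22.8 in the untreated libraries (SD, n = 3 each). In bulk RNA, fewer cells of a type and less RNA per cell cannot be told apart.

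**Figure D1:**
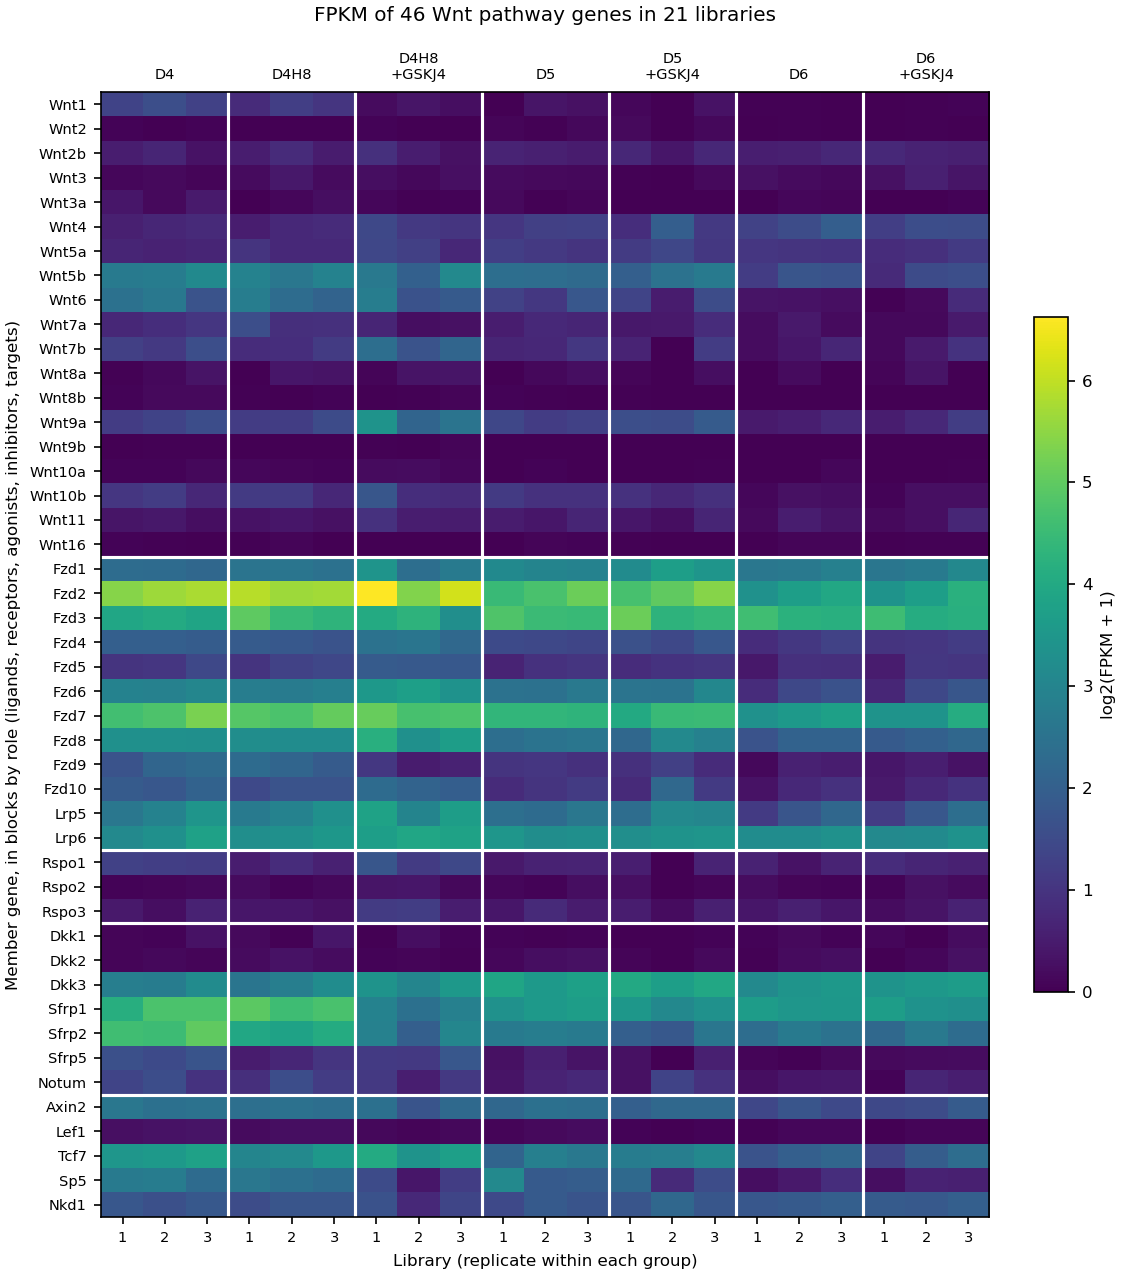
Heat map of log2(FPKM + 1) for the 46 members (rows, in blocks by role) in the 21 libraries (columns, 3 replicates for each of the 7 groups). The receptor block is the brightest, led by Fzd2, Fzd3 and Fzd7, and most ligand rows stay dark in every library.

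The receptors were the most abundant role and the ligands were few. A mean of 1 FPKM or more in at least 1 group was reached by 31 of the 46 members: all 12 receptors, 9 of 19 ligands, 5 of 7 inhibitors, 4 of 5 targets and 1 of 3 agonists. Summed over the 12 receptors, the level was 139 ± 19.6 FPKM at D4, against 19.7 ± 1.14 for the 19 ligands together (SD, n = 3). The ligands under that limit in every group were Wnt2, Wnt2b, Wnt3, Wnt3a, Wnt8a, Wnt8b, Wnt9b, Wnt10a, Wnt11 and Wnt16. Of these, Wnt2b and Wnt11 were above 3 counts in all 21 libraries, whereas Wnt9b was at 3 counts or fewer in 20 of 21. The other members under the limit were Rspo2, Rspo3, Dkk1, Dkk2 and Lef1.

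Wnt5b and Wnt6 led the ligands at the start. At D4, Wnt5b was at 5.52, 5.82 and 7.80 FPKM and Wnt6 at 4.52, 5.28 and 2.25. With Wnt1 they held 61.3% of the summed ligand level. Wnt5b shares its locus on chromosome 6 with Fbxl14, an expressed gene on the opposite strand, and the counting is not stated to use strand, so reads of these genes may not have been separated. At D6 the leading ligand was Wnt4, a ligand of kidney and gonad development, with 27.2% of the ligand sum.

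Among the secreted inhibitors, Sfrp1 and Sfrp2, decoys that resemble the ligand-binding part of Frizzled, dominated before D5. At D4 Sfrp2 made up 43.4% of the summed FPKM of the 7 inhibitors and Sfrp1 38.8%. Dkk3, a secreted protein of the Dickkopf family that differs from Dkk1 in not blocking Lrp6, was the largest at D5 with 41.9%. At D6 Sfrp1 led again, with 42.2% against 36.8% for Dkk3. Dkk1 itself averaged 0.0167 to 0.160 FPKM over the 7 groups.

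The first comparison asked which members changed when the cultures were given GSKJ4 for the day that ended at D4H8. Here 36 of the 46 members had enough reads to be tested, and 6 passed edgeR's quasi-likelihood test at an adjusted p under 0.05. The inhibitors Sfrp1 and Sfrp2, the receptor Fzd9 and the ligand Wnt1 fell, and the ligands Wnt7b and Wnt9a rose. Across all 16269 genes tested, 2.11% were called higher and 1.85% lower. The median log2 fold change of the 36 members was 0.43, against 0.02 for all genes, and the median size of the change irrespective of sign was 0.77 against 0.38. Of the 36 members, 13 were higher in every treated library than in any untreated library and 7 were lower in every one, against 16.7% and 16.6% of all genes tested (counts scaled to library size by TMM, the trimmed mean of M-values). The other 10 members were too low to be tested: Wnt2, Wnt3, Wnt3a, Wnt8a, Wnt8b, Wnt9b, Wnt10a, Wnt16, Dkk1 and Dkk2.

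Sfrp1 had the smallest p of the members. Untreated D4H8 libraries were at 29.8, 22.7 and 25.6 FPKM and the treated ones at 6.63, 4.42 and 6.40. The groups did not overlap, and the treated libraries lay below those of every other group too. The log2 fold change was −2.21 (SE 0.20), with an adjusted p of 0.00270 by edgeR. Sfrp1 lies at chr8:23411502-23449632 (mm10, plus strand).

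Sfrp2 was at 14.7, 13.1 and 16.0 FPKM without GSKJ4 and at 6.5, 3.04 and 7.30 with it. Again no treated library reached the lowest untreated one. The log2 fold change was −1.44 (SE 0.29, adjusted p = 0.0320, edgeR). The gene lies at chr3:83766321-83774316, on the plus strand.

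With both Sfrp genes lower, the summed FPKM of the 7 inhibitors was 49.5 ± 4.15 in the untreated and 23.1 ± 5.96 in the treated D4H8 libraries (SD, n = 3). Dkk3 then held 39.2% of the sum. Of the 5 inhibitors tested, none rose. Dkk3 and Notum did not pass (log2 fold changes 0.46 and −0.62, adjusted p 0.250 and 0.405), nor did Sfrp5 at 1.17 (adjusted p = 0.157, edgeR).

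**Figure D2:**
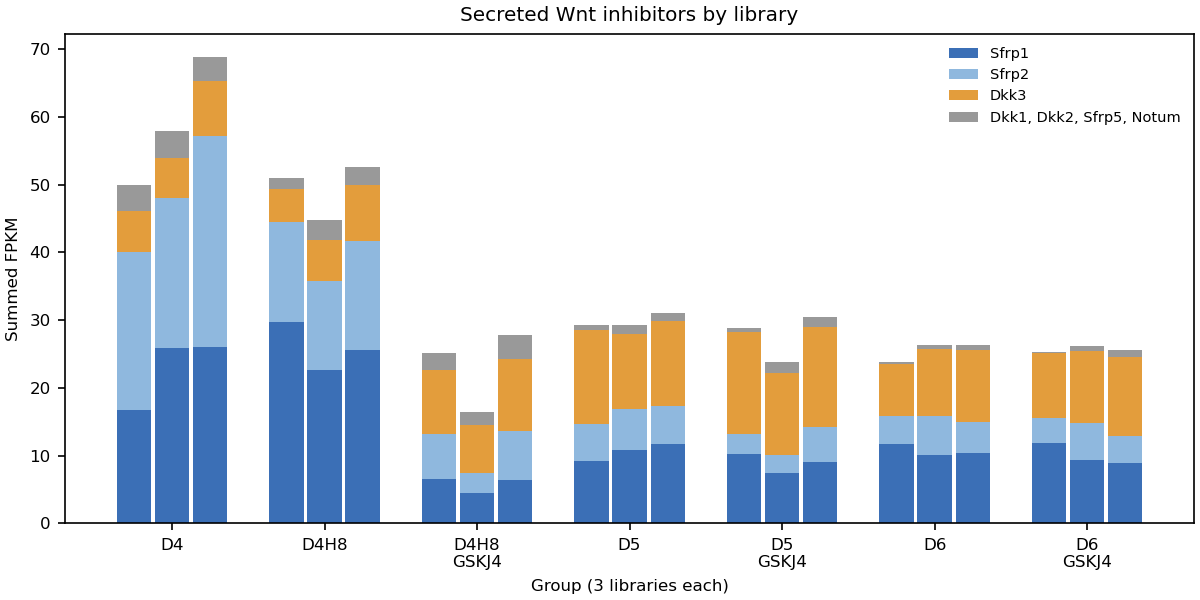
Stacked bars of the FPKM of Sfrp1, Sfrp2, Dkk3 and the other 4 secreted inhibitors in each of the 21 libraries (1 bar a library, 3 a group). The 3 bars of GSKJ4-treated D4H8 reach 16.5 to 27.9 FPKM, against 44.8 to 52.7 in untreated D4H8, and Sfrp1 and Sfrp2 account for the lower part.

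Fzd9, a Frizzled receptor of the developing nervous system, was at 3.96, 3.46 and 2.77 FPKM in untreated D4H8. It was at 1.12, 0.41 and 0.56 in treated D4H8. The groups were well apart, and the log2 fold change was −2.34 (SE 0.41, adjusted p = 0.0237, edgeR). It lies at chr5:135248938-135251230 on the minus strand. No other receptor passed the test. Of the 12 receptors, 6 lay higher in all treated libraries without passing, Fzd4, Fzd5, Fzd6, Fzd8, Fzd10 and Lrp6, where 16.7% of all genes tested lay higher. Fzd6 came nearest, at 6.01, 5.73 and 6.25 FPKM untreated and 10.6, 12.3 and 9.47 treated (log2 fold change 0.82, SE 0.20, adjusted p = 0.0526, edgeR). The most abundant receptor, Fzd2, ranged from 48.9 to 59.7 FPKM untreated and from 40.4 to 97.6 treated, so that the groups overlapped.

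Among the ligands, Wnt1 was at 0.77, 1.35 and 1.04 FPKM without GSKJ4. With GSKJ4 it was at 0.15, 0.29 and 0.19, which rests on 6, 12 and 7 reads. The log2 fold change was −2.31 (SE 0.48, adjusted p = 0.0351, edgeR). Wnt1 lies at chr15:98789857-98793837 on the plus strand.

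Wnt7b and Wnt9a went the other way. Wnt7b, a ligand known from lung and brain vessel development, was at 0.80, 0.84 and 1.23 FPKM untreated and 4.30, 2.24 and 3.48 treated, a log2 fold change of 1.76 (SE 0.30, adjusted p = 0.0235, edgeR). It lies at chr15:85535437-85582473 on the minus strand. Wnt9a, known from joint formation, was at 1.28, 1.29 and 1.88 FPKM untreated and 9.55, 3.38 and 4.84 treated, a log2 fold change of 1.95 (SE 0.38, adjusted p = 0.0292, edgeR). The treated libraries of Wnt9a differed among themselves more than the untreated ones did, with replicate 1 highest. Wnt9a lies at chr11:59306928-59333552 on the plus strand and was the leading ligand of treated D4H8, with 24.2% of the ligand sum.

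Wnt7a, a paralog of Wnt7b, moved in the opposite direction without passing the test. It was at 2.01, 0.87 and 0.88 FPKM untreated and at 0.60, 0.18 and 0.24 treated (log2 fold change −1.95, SE 0.55, adjusted p = 0.0737, edgeR). The groups did not overlap, but untreated replicate 1 was far above the other untreated libraries.

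Wnt1 and Wnt9a each have a neighbouring ligand gene that was not called. Wnt10b lies 11706 bases from Wnt1, with no coding gene between, and its D4H8 mean was 1.01 FPKM without GSKJ4 and 1.34 with it (log2 fold change 0.34, SE 0.49, adjusted p = 0.701, edgeR). Wnt3a lies 16175 bases from Wnt9a and was at 0.0933 and 0.0533 FPKM in the same groups, too low to be tested. The differences within these pairs were not tested.

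None of the 3 R-spondins passed. Rspo1, at chr4:124986430-125009099 on the plus strand, was at 0.44, 0.79 and 0.52 FPKM untreated and 2.43, 1.23 and 1.71 treated, with a log2 fold change of 1.59 (SE 0.41, adjusted p = 0.0613, edgeR). Rspo3 was at 0.32, 0.32 and 0.24 FPKM untreated and 1.21, 1.30 and 0.45 treated (log2 fold change 1.73, SE 0.50, adjusted p = 0.0766). In both the treated libraries lay above the untreated ones.

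No target or transcription factor passed either. Sp5, a zinc finger factor and direct beta-catenin target, was at 5.19, 4.42 and 3.97 FPKM untreated and 1.87, 0.31 and 1.30 treated, without overlap (log2 fold change −2.04, SE 0.50, adjusted p = 0.0536, edgeR). Sp5 lies at chr2:70474923-70477729 on the plus strand. Axin2, the feedback gene most often read as a measure of beta-catenin signalling, was at 4.31, 4.59 and 4.30 FPKM untreated and 4.45, 2.28 and 3.81 treated, and these overlapped (log2 fold change −0.38, SE 0.24, adjusted p = 0.352). Lef1, Nkd1 and Tcf7 had log2 fold changes of −0.90, −0.62 and 0.52 and did not pass.

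**Figure D3:**
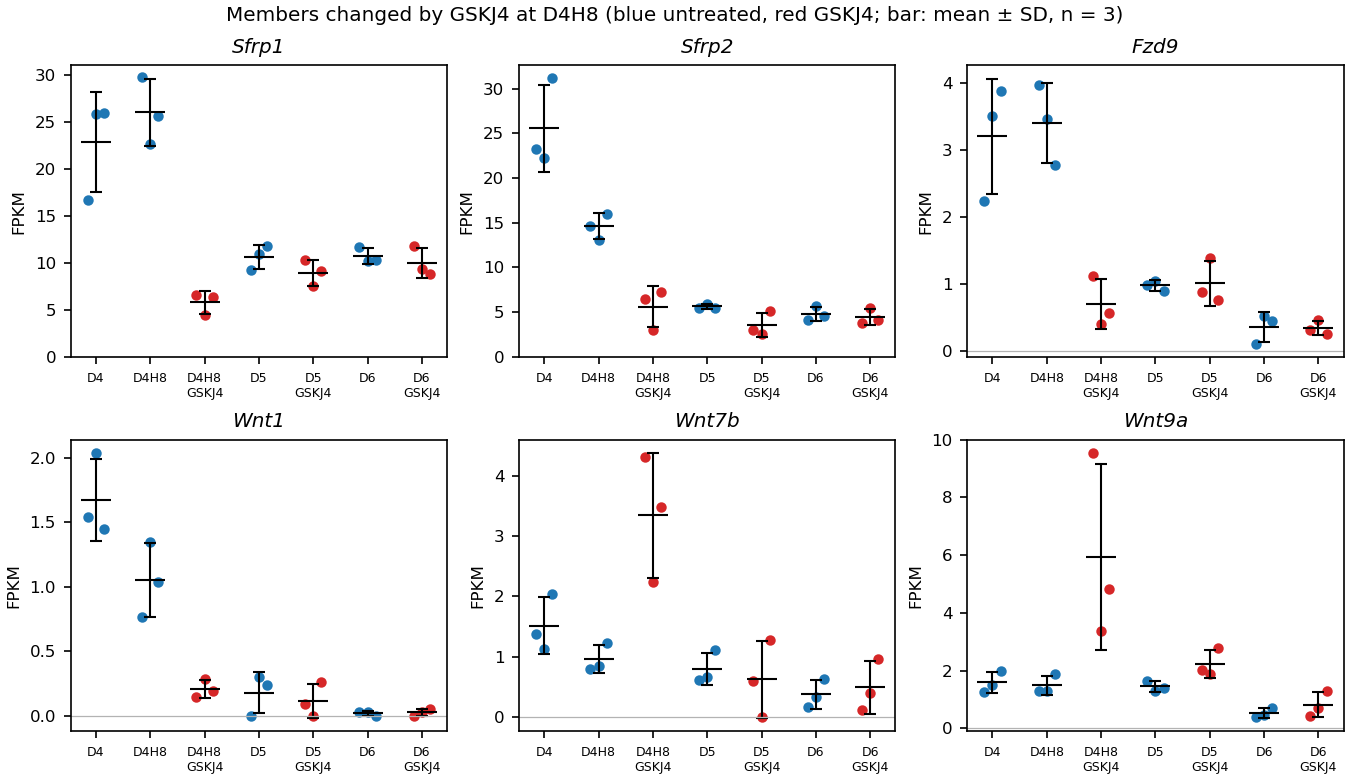
FPKM of the 6 members called at D4H8 in every library (points; blue untreated, red GSKJ4), with mean ± SD (n = 3), by group along the horizontal axis. At D4H8 the treated points of Sfrp1, Sfrp2, Fzd9 and Wnt1 lie below all untreated ones and those of Wnt7b and Wnt9a above, and at D5 and D6 none of the 6 was called.

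Of the D4H8 calls, only that of Sfrp1 was kept with each single library left out, whereas the direction of all 6 was kept. Leaving out untreated replicate 1, 2 or 3 left 1 member called each time, Sfrp1, and 43 to 50 genes of the whole table. Over the 6 fits that leave out a library, the log2 fold change was −2.85 to −2.11 for Fzd9, −1.63 to −1.18 for Sfrp2 and −2.70 to −2.10 for Wnt1. For Wnt7b it was 1.56 to 1.96, and for Wnt9a 1.45 to 2.20 (adjusted p of these 5 up to 0.165, edgeR). Leaving out treated replicate 1, 2 or 3 left 6, 11 and 5 members called. Over all genes these fits called 541 of 16744, 1746 of 16694 and 450 of 16799. DESeq2 called 13 members, against 1231 of 15953 genes higher and 965 lower. Sfrp1 passed in each of these fits, and its log2 fold change ranged from −2.31 to −2.08 when a library was left out.

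The sequences before the starts of Sfrp2, Wnt1 and Wnt9a are shown because the promoters of the members that could be matched are, by their median, rich in CpG. H3K27 methylation is known to gather on promoters of that kind, and its part in these changes was not tested. RefSeq promoters (GRCm38.p6, the build of mm10) were matched for 31 of the 46 members, 38 starts in all. Sfrp1 and Wnt7b were among the members without a match. Some RefSeq starts lie inside the annotated gene, and windows of Fzd10, Nkd1, Lef1, Tcf7, Wnt5b and Wnt11 lay wholly inside it. Over the 250 bases before the start, the 38 windows of members held a median of 18.5 CG pairs, against 6 over all 32851 promoters. Each line runs 5′ to 3′ on the gene's own strand and capitals mark CG pairs.
Sfrp2 (chr3:83766071-83766320): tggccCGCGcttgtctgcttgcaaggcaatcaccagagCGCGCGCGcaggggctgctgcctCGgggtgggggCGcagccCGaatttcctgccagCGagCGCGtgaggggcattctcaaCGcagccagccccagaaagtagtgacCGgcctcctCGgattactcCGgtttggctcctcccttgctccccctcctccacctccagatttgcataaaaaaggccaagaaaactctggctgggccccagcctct
Wnt1 (chr15:98789607-98789856): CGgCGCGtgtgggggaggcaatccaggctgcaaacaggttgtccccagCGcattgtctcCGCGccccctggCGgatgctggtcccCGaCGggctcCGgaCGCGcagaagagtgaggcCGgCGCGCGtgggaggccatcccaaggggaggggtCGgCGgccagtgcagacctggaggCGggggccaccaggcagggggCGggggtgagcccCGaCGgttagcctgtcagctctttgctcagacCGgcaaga
Wnt9a (chr11:59306680-59306929): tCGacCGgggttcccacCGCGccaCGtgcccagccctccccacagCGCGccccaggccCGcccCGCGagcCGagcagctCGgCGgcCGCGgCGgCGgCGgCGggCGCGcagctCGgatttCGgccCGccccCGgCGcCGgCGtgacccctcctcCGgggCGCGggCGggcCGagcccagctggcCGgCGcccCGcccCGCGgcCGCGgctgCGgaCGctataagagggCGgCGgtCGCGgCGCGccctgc
Wnt9a had 48 CG pairs here, a number reached by 0.186% of promoters. Wnt1 had 23, reached by 13.3%, and Sfrp2 16, reached by 25.4%. Both ligands shown, the lowered Wnt1 and the raised Wnt9a, were above the median of all promoters. The window of Fzd9 had 42 CG pairs and ran 183 bases into its annotated gene, so its letters are not given. The last 2 bases of the Wnt9a window also lie inside the annotated gene. No chromatin mark was measured in these libraries.

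The letters CTTTGAT, a core binding sequence of TCF and LEF factors, were searched on both strands of the same windows. They stood in 3 of the 38 member windows, 7.89%, against 3.21% of all promoters. The members were Sp5, Wnt5b and Wnt11. The matching Wnt5b window lay wholly inside the annotated gene. The window of Sp5 is shown because it holds a match before a known target gene, with the match in capitals; it had 6 CG pairs.
Sp5 (chr2:70474673-70474922): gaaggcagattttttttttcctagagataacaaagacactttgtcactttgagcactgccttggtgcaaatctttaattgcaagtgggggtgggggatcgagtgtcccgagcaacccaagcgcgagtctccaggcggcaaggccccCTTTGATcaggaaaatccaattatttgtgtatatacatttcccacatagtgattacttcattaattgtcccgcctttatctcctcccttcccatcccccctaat
A match is a description of the letters and was not tested for binding.

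At D5 and D6 no member passed the GSKJ4 comparison. At D5, 32 members were tested and 0 were called by edgeR or by DESeq2, against 0.00613% of 16309 genes by edgeR. DESeq2 called 31 of 12514 genes higher and 43 lower. At an unadjusted p under 0.05 there were 2 members, Fzd1 (log2 fold change 0.45, SE 0.19) and Sfrp2 (−0.72, SE 0.31), against 4.7% of all genes. Both had an adjusted p of 0.976. Without treated D5 replicate 2, the library with many genes at 0, 37 members were tested and 0 were called, against 0.00591% of 16918 genes. The members at an unadjusted p under 0.05 were then Wnt9a and Lef1 (log2 fold changes 0.69, SE 0.29, and −1.54, SE 0.66, both with an adjusted p of 0.999), against 4.11% of genes. Fzd1 and Sfrp2 were at 0.32 (SE 0.19) and −0.52 (SE 0.28) in that fit. At D6, 32 members were tested and 0 were called by edgeR or DESeq2, against 0% of all genes by edgeR and 1 of 16301 by DESeq2. None of the members had an unadjusted p under 0.05, against 1.36% of genes. With the replicate number as a block, 1.58% of genes were called at D6 and 0 members.

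For the 6 members changed at D4H8, the values at D5 were as follows, those of Sfrp2 being given above. Values at D6 are given for Sfrp1 and Fzd9, and none of the 6 was called there. Sfrp1 was at 9.25, 10.9 and 11.8 FPKM at D5 and at 10.3, 7.51 and 9.14 with GSKJ4 (log2 fold change −0.28, SE 0.19, and −0.16, SE 0.18, without treated replicate 2). At D6 it was at 11.8, 10.2 and 10.4 without and 11.9, 9.41 and 8.85 with the inhibitor (−0.11, SE 0.16). Fzd9 differed by 0.00 (SE 0.56) at D5, by −0.27 (SE 0.39) without treated replicate 2, and by −0.03 (SE 0.57) at D6 on the log2 scale. Wnt9a was at 1.65, 1.28 and 1.41 FPKM at D5 and at 2.03, 1.89 and 2.77 with GSKJ4, where the groups did not overlap but the test was not passed (log2 fold change 0.57, SE 0.33, adjusted p = 0.976, edgeR). Wnt7b was at 0.61, 0.66 and 1.10 FPKM at D5 and at 0.59, 0 and 1.28 with GSKJ4, where the 0 is treated replicate 2. Its log2 fold change at D5 was −0.38 (SE 1.06) with that library and 0.20 (SE 0.41) without it. Wnt1 had 0, 12 and 9 reads at untreated D5 and was too low to be tested at either stage with all libraries. Without treated D5 replicate 2 it was tested, at −0.11 (SE 1.03).

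Whether the GSKJ4 effect itself differed between stages was tested by an interaction over the 18 libraries. For D5 against D4H8, 0.232% of 18103 genes had a higher effect and 0.0166% a lower one, and for D6 against D4H8 0.552% and 0.182%. Of the 38 members tested, Sfrp1 alone passed in each. Its log2 effect was 1.93 higher at D5 than at D4H8 (SE 0.27, adjusted p = 0.00337, edgeR) and 2.12 higher at D6 (SE 0.27, adjusted p = 0.00106). It passed in every alternative fit and with any single library left out. These 2 tests share the D4H8 libraries. For Sfrp2 the differences were 0.72 (SE 0.39) and 1.33 (SE 0.39), for Fzd9 2.33 (SE 0.67) and 2.33 (SE 0.71), and for Wnt9a −1.40 (SE 0.54) and −1.32 (SE 0.56), none of which passed (adjusted p 0.129 to 0.562). At D5 against D4H8, Wnt7b differed by −2.15 (SE 1.15, adjusted p = 0.554, edgeR) and Wnt1 by 1.64 (SE 1.36, adjusted p = 0.722), without passing.

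**Figure D4:**
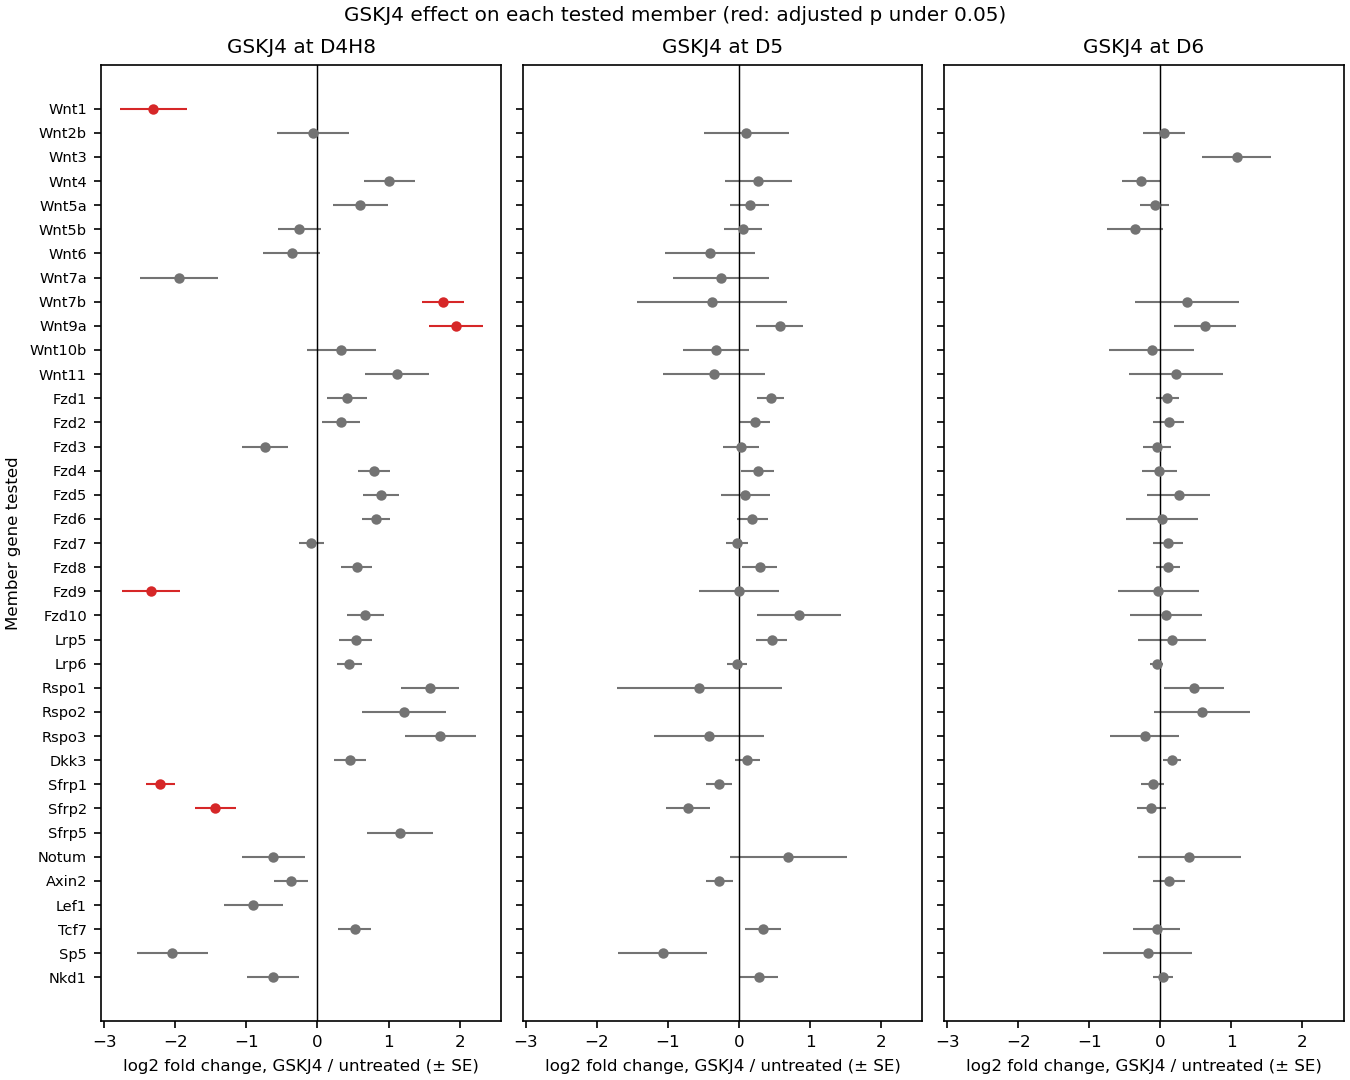
log2 fold change of GSKJ4 against untreated (points, ± SE from edgeR) for each tested member, in 1 panel for D4H8, D5 and D6. Red points, adjusted p under 0.05, occur in the D4H8 panel only, where the values run from −2.34 to 1.95.

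Marker genes moved with GSKJ4 at D4H8 as well. Of 5 pMN progenitor markers 2 were lower and 0 higher, and the summed level of the list was 217.58 to 295.26 FPKM untreated and 57.77 to 115.76 treated. Of 6 motor neuron markers 3 were lower, with sums of 55.25 to 60.15 and 11.59 to 27.14 FPKM. Of 8 roof plate and dorsal neural tube markers 3 were tested and 0 were called (sums 2.89 to 5.46 and 1.9 to 3.72 FPKM), and Atoh1 was at 0 or 1 read in each library. Of 9 feeder fibroblast markers 7 were tested and 0 called, with sums of 6.15 to 14.12 FPKM untreated and 10.58 to 27.63 treated. Of 4 pluripotency markers all were tested and 0 called, with sums of 9.85 to 52.01 and 29.81 to 77.32 FPKM. The part of these cells in the members' changes was not tested.

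Over the untreated stages more members fell than rose, receptors among them. From D4 to D6, 37 members were tested: 5 rose and 24 fell, against 32.9% and 31% of all 17519 genes. The 5 that rose were the ligands Wnt4 and Wnt5a, the receptors Fzd1 and Fzd3 and the inhibitor Dkk3. The median log2 fold change of the members was −1.53, against −0.04 for all genes. By role, 8 of 12 receptors, 7 of 11 tested ligands, 4 of 6 tested inhibitors, 4 of 5 targets and 1 of 3 agonists fell. The summed receptor level went from 139 ± 19.6 FPKM at D4 to 151 ± 10.8 at D4H8, 104 ± 5.27 at D5 and 66.1 ± 6.13 at D6 (SD, n = 3).

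Cell type markers moved over the same span. From D4 to D6 all 6 motor neuron markers rose, with sums of 7.53 to 19.12 FPKM at D4 and 393.73 to 455.54 at D6. Of 5 pMN progenitor markers 1 rose and 3 fell (sums 143.19 to 202.7 and 148.68 to 217.11 FPKM). The sums hide these changes. Nkx6-1 rose from a mean of 27.2 to 143 FPKM, whereas Olig2 fell from 47.5 to 1.24, Sox2 from 66.1 to 17.9 and Pax6 from 7.29 to 0.24. Of 5 floor plate and p3 markers 4 rose, from sums of 15.15 to 19.31 to sums of 35.22 to 51.4 FPKM. Of 9 feeder fibroblast markers 8 were tested and 3 rose (sums 4.68 to 17.41 and 12.64 to 28.72 FPKM), among them Dcn, a matrix proteoglycan, from a mean of 0.507 to 6.22 FPKM. Of 8 roof plate and dorsal neural tube markers 4 were tested and 2 fell, from sums of 3.87 to 7.02 to sums of 0.44 to 0.59 FPKM. All 4 pluripotency markers were tested and 0 were called. Their sums were 20.41, 56.6 and 59.34 FPKM in D4 replicates 1, 2 and 3, and 5.31, 34.34 and 35.55 in those of D6. The part of these cells in the members' stage changes was not tested.

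The change came in steps. From D4 to D4H8, 0 members rose and 2 fell, against 4.06% and 0.32% of genes. These were Sfrp2, from 23.3, 22.2 and 31.2 FPKM at D4 (log2 fold change −0.86, SE 0.15, adjusted p = 0.0039, edgeR), and Sfrp5, which was at 2.08, 1.82 and 2.27 FPKM at D4 and 0.43, 0.65 and 1.02 at D4H8 (−1.65, SE 0.40, adjusted p = 0.0291). Sfrp5 lost its call when D4 replicate 1, 2 or 3 or D4H8 replicate 1 or 2 was left out (adjusted p up to 0.174).

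From D4H8 to D5, 3 members rose and 12 fell, against 17.2% and 10.5% of genes. Dkk3, Wnt4 and Fzd1 rose. The fall was steepest in Wnt1 (log2 fold change −2.49, SE 0.60, adjusted p = 0.00676), followed by Fzd9 (−1.80, SE 0.35). Sfrp1 went from 22.7 to 29.8 FPKM down to 9.25 to 11.8 (−1.29, SE 0.16, adjusted p = 3.99e-05, edgeR), Sfrp2 from 13.1 to 16.0 down to 5.48 to 5.97 (−1.37, SE 0.16), and Fzd2, the most abundant receptor, from 48.9 to 59.7 down to 21.3 to 34.2 (−0.98, SE 0.17). The others that fell were Wnt6, Wnt7a, Fzd7, Fzd8, Fzd10, Notum and Tcf7. With the replicate number as a block, Wnt7a no longer passed (adjusted p = 0.0602) and Wnt5a, Wnt5b, Fzd5 and Lrp5 did. Of the 15 calls, 9 stood with any single library left out. Fzd10, Notum, Tcf7, Wnt4, Wnt6 and Wnt7a were lost in at least 1 of those fits, Wnt7a furthest without D4H8 replicate 1 (log2 fold change −0.56, adjusted p = 0.325).

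From D5 to D6, 1 member rose and 16 fell, against 19.2% and 15.1% of genes. Wnt4 rose, from 1.07, 1.40 and 1.44 FPKM to 1.49, 1.93 and 2.92 (log2 fold change 0.80, SE 0.27, adjusted p = 0.0345, edgeR). Of the 5 targets and transcription factors, 3 fell in this step, Axin2, Sp5 and Tcf7. Axin2 was at 3.67, 4.42 and 4.27 FPKM at D5 and at 1.67, 2.35 and 1.77 at D6 (−0.98, SE 0.16, adjusted p = 4.44e-04). Sp5 was at 7.68, 2.69 and 2.87 FPKM and then at 0.18, 0.36 and 0.82 (−3.20, SE 0.51, adjusted p = 3.45e-04), and Tcf7 fell by 0.64 on the log2 scale (SE 0.22). Lef1 and Nkd1 did not pass, and Nkd1 averaged 2.24 ± 0.44 FPKM at D5 and 2.71 ± 0.26 at D6 (SD, n = 3). Among the other target genes, which are no members, 7 were tested in this step, of which 1 rose (Nkd2) and 2 fell (Ccnd1 and Sp8). The ligands Wnt1, Wnt5b, Wnt6, Wnt7a, Wnt9a and Wnt10b, the receptors Fzd2, Fzd6, Fzd7, Fzd8, Fzd9 and Lrp5 and the inhibitor Sfrp5 made up the rest. With the block, Wnt7a was lost (adjusted p = 0.0506) and Wnt7b was gained. Without D5 replicate 2 or without D6 replicate 1, 11 members were called. With any single library left out, 10 of the 17 calls stood, and Fzd9, Lrp5, Sfrp5, Tcf7, Wnt1, Wnt4 and Wnt7a were lost in at least 1 fit. Wnt4 was at 0.53 (adjusted p = 0.171) without D6 replicate 3 and Tcf7 at −0.47 (adjusted p = 0.145) without D5 replicate 2.

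Wnt1 reached the lowest level of the members detected at D4. It had 83, 83 and 56 reads at D4 and 1, 1 and 0 at D6, at least 21.2-fold lower against a floor of 3 counts per library. Fzd3, a receptor of the planar polarity branch that guides axons, was at 14, 15.5 and 13.5 FPKM at D4 and 23.0, 17.8 and 17.0 at D6 (log2 fold change 0.49, SE 0.20, adjusted p = 0.0427, edgeR), and was the leading receptor at D6 with 29.2% of the receptor sum, in place of Fzd2 with 34.8% at D4. Fzd3 kept its call in 5 of the 12 fits with a library left out, and without D6 replicate 1 its log2 fold change was 0.31 (adjusted p = 0.201). Of the 29 members called from D4 to D6, 27 were called in all 12 of those fits, the others being Fzd3 and Dkk3 (adjusted p up to 0.0843, without D4 replicate 2).

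**Figure D5:**
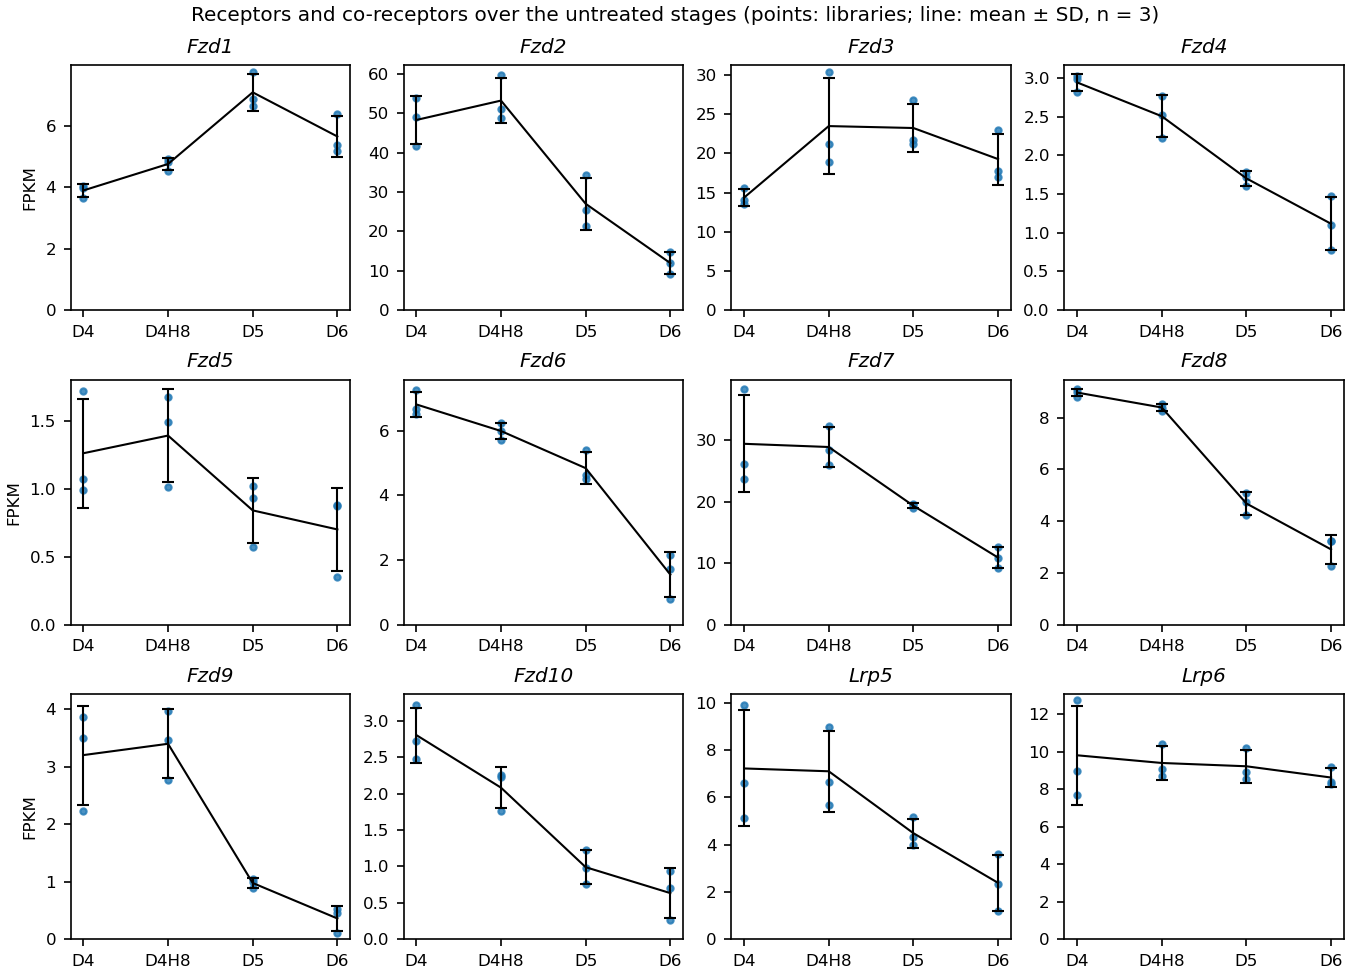
FPKM of the 12 receptors and co-receptors at the untreated stages D4, D4H8, D5 and D6 (points are libraries, lines join means, bars are SD, n = 3; each panel has its own vertical axis from 0). Fzd2 runs from 48.3 at D4 to 11.95 FPKM at D6, whereas Fzd3 ends above its D4 level.

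The fall from D4 to D6 was not shared by the whole pathway. Of 68 other genes of the pathway, 62 were tested from D4 to D6, of which 27 rose and 21 fell, against 32.9% and 31% of all genes, with a median log2 fold change of 0.01. The cytoplasmic components (9 of 14 rose, 3 fell), the nuclear cofactors (7 of 10 rose, 2 fell) and the planar polarity genes (7 of 12 rose, 3 fell) had positive medians of 0.73, 0.70 and 0.91. The secretion and receptor partners had 1 of 14 raised and 8 lowered, with a median of −0.70, and the other target genes 1 of 7 tested raised and 4 lowered.

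With GSKJ4 at D4H8, 61 of these 68 genes were tested, and 2 rose and 3 fell, against 2.11% and 1.85% of all genes. Wls, the carrier that takes Wnt ligands to the cell surface, was at 14.2, 13.6 and 12.8 FPKM untreated and 26.6, 26.5 and 21.4 treated (log2 fold change 0.85, SE 0.19, adjusted p = 0.0418, edgeR). The R-spondin receptors Lgr6 and Lgr5 passed in opposite directions (1.70, SE 0.38, and −1.44, SE 0.31). Ccnd1, the cell cycle gene for cyclin D1, was at 33.4, 29.6 and 33.4 FPKM and then 8.43, 9.66 and 8.77 (−1.87, SE 0.18, adjusted p = 0.00275). Sp8, a relative of Sp5, was at 10.2, 8.48 and 11.1 FPKM untreated and 2.13, 1.88 and 2.39 treated (−2.26, SE 0.20, adjusted p = 0.00270). At D5 and at D6, 0 of these genes were called by edgeR or DESeq2. At an unadjusted p under 0.05 (edgeR) there were 3 of 62 tested at D5 and 0 of 60 at D6, against 4.7% and 1.36% of all genes.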

How the data were processed

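PolyA RNA-seq of 7 groups with 3 replicates each was analysed. The authors trimmed the reads with Fastp, aligned them to mm10 with HISAT2, sorted them with SAMtools and counted them per gene with HTSeq; the strand setting was not given in the sources used here. The deposited counts are whole reads per gene and were not normalized. The deposited FPKM values, which the authors made from those counts and gene lengths, could be recomputed from the count table to within 0.005.

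Counts were tested with edgeR 4.0.16 (R 4.3.3) by the quasi-likelihood F test after filterByExpr (minimum count 10) and TMM scaling, with Benjamini-Hochberg adjustment over all tested genes and a threshold of 0.05. The GSKJ4 comparison at a stage used the 6 libraries of that stage. Stages were compared in a fit of the 12 untreated libraries, and GSKJ4 effects between stages in a fit of 18. Log2 fold changes carry the SE implied by the F statistic. FPKM was used for levels only, as mean ± SD. Alternatives were DESeq2 1.42.0, RLE and upper-quartile scaling, other filters, a replicate block, a joint fit and leaving out each library. The scripts were tested on simulated data with known changes.

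Replicates with the same number were checked for shared deviations. The correlation was over 0.1 in every pair for GSKJ4 at D6 (0.316 to 0.663), D4H8 to D5 and D5 to D6, and was not for the other comparisons. Labels call the replicates biological without naming their source, so p-values measure the spread between these libraries. Their total counts, 14982115 to 34383842, set the counting precision. The members and gene lists were chosen with earlier results of these data known. Every member was accounted for; full values were given for members called at D4H8, or with the largest change of their role among members of 1 FPKM or more. Single-library values of Wnt4, Wnt5b, Wnt6, Wnt7a, Fzd3, Fzd6, Rspo3, Sfrp5 and Axin2 were added after their values were seen. Other pathway genes were named only if called, at most 3 in each direction. Gene positions are from GENCODE vM21, and promoter sequences are RefSeq's.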

Additional observations from a re-analysis of the deposited data

Results flagged for a closer look

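The GSKJ4 effect on Sfrp1 differed between stages by a test of the difference itself. It was 1.93 higher on the log2 scale at D5 than at D4H8 (SE 0.27, adjusted p = 0.00337, edgeR) and 2.12 higher at D6 (SE 0.27, adjusted p = 0.00106). Outside the 46 members, the related factor Sp8 differed in the same way, by 2.08 at D5 (SE 0.33, adjusted p = 0.00719) and by 2.92 at D6 (SE 0.36, adjusted p = 0.00101). In untreated cultures Sp8 averaged 9.91 ± 1.31 FPKM at D4H8, 6.80 ± 1.48 at D5 and 0.337 ± 0.145 at D6 (SD, n = 3), so the D6 effect rests on low values.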

How the results depend on the processing

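For GSKJ4 at D4H8, 6 members were called, where 343 of all genes were called higher and 301 lower. DESeq2 called 13 members, where 1231 and 965 genes were called. The fit with no filter on low counts called 12, where 1229 and 1058 genes were called. The fit with the replicate block called 14, where 1235 and 1039 genes were called, adding Fzd3, Fzd4, Fzd5, Fzd6, Rspo1, Rspo3, Sp5 and Wnt7a. The pairing check did not hold there in every pair. Leaving out single libraries gave 1 to 11. At D5 and D6 the count was 0 in every fit, with the replicate block too. From D4 to D4H8 (2 members), DESeq2 gave 4, at least 10 counts in every library 1, the joint fit over all 21 libraries 0, and leaving out a library 1 to 3. Over all genes, 711 were called higher and 56 lower there, against 997 and 194 by DESeq2 and 413 and 9 in the joint fit. From D4H8 to D5 (15), the joint fit gave 9. From D5 to D6 (17), the 10-count filter gave 10, the joint fit 11, the 6 libraries of those stages alone 10, and leaving out a library 11 to 17. From D4 to D6 (29), the 10-count filter gave 19. Members whose GSKJ4 effect differed between stages numbered 1, against 3 by DESeq2 and 2 with no filter. Members of 1 FPKM or more numbered 31 on both scalings. Causes were not tested, except that the 10-count filter tests fewer genes. Of the values of single members under alternatives, 1430 kept their side of the threshold, 110 lost the call and 31 gained it. Values that were not called could turn direction. That of Wnt7b for GSKJ4 at D5 went from −0.38 to 0.20 on the log2 scale without treated replicate 2. The replicate block changed no member call other than those given for D4H8, D4H8 to D5 and D5 to D6, and Fzd3 from D4 to D4H8 and Fzd5 from D4 to D6, which it added. Low counts left 10 members untested for GSKJ4 at D4H8, 14 at D5 and at D6, and 9 between stages.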
